A study of Mus musculus with 12 samples.

Results

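The genes described here are the protein-coding parts list of the mitochondrial respiratory chain and ATP synthase in MIN6 cells, an insulin-secreting mouse insulinoma line. They were taken by gene name: the subunit families Nduf, Sdh, Uqcr, Cox4 to Cox8 and Atp5, the genes Cyc1 and Cycs, and the subunits encoded by mitochondrial DNA, with names marked as pseudogenes (6) left out. That gave 98 of 49315 genes in the count files, of which 85 are nuclear and 13 mitochondrial. By complex there were 43 genes of complex I, 4 of complex II, 10 of complex III, 22 of complex IV, 18 of ATP synthase (complex V) and 1 of cytochrome c. Of the 98, 96 had enough reads to be tested. Cox8b (0 to 5 reads in a library) and Cox8c (0 reads in all 12 libraries) were not, so 83 nuclear genes and all 13 mitochondrial genes were tested.

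Total RNA was sequenced in 12 libraries, 3 in each of 4 groups, all of unmodified MIN6 cells. The groups were a control, cells kept 16 h without amino acids (starved), cells given amino acids back for 3 h (re-added), and cells given amino acids back for 3 h together with Rap, an agent that the labels do not spell out and whose dose they do not give. The labels state a culture medium of DMEM with serum and glutamine but not the make-up of the amino acid free medium, nor the time both re-added groups spent in it. Whether replicates were grown as separate cultures is not given either, and every p-value here therefore rests on differences among libraries that may be technical in part.

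The respiratory chain passes electrons from NADH (complex I) and succinate (complex II) through complex III and cytochrome c to oxygen at complex IV, and the proton gradient built on the way drives ATP synthase. Complexes I, III, IV and V are mosaics: a few membrane core subunits are made from mitochondrial DNA, transcribed in long polycistronic units by the polymerase Polrmt, while all other subunits, and the whole of complex II, are encoded in the nucleus. In beta cells, ATP made by this chain closes potassium channels and so couples glucose to insulin release.

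Libraries held 18555958 to 25631056 counted reads. The 12 beta-cell markers examined, none of them at 0 in every library, summed to 54135 to 70778 CPM in the controls (counts scaled to the library total). They summed to 44790 to 46979 CPM in the starved, 42813 to 48215 CPM in the re-added and 46874 to 51324 CPM in the Rap libraries, all below the controls. Transcripts of other cell types were present as well: the 34 markers of fibroblasts, leukocytes, endothelium and lung, none of them at 0 in every library, summed to 3180.2 to 3779.8 CPM in the controls, to 3128, 187 and 1437 CPM in starved replicates 1, 2 and 3, to 1352, 183 and 155 CPM in the re-added ones, and to 132 to 145 CPM with Rap. Because the sums of these other cell types move with the groups, each comparison was also made between libraries where they were alike. Starved replicate 1 was set against control, and starved replicate 2, re-added replicates 2 and 3 and the Rap libraries against each other. These are called matched libraries; they leave 1 library of the starved group where it enters, whose spread is assumed to be that of the other groups, and give no value for re-added against control. In bulk RNA, fewer cells that express a gene and less of its RNA per cell cannot be told apart.

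Without amino acids, the nuclear genes of the chain that were called fell, with 1 exception, and the mitochondrial genes that were called rose. Of 83 nuclear genes, 69 fell and 1 rose, where 14.6% of all 16844 tested genes fell and 24.3% rose (edgeR, adjusted p under 0.05). Of the 13 mitochondrial genes, 7 rose and 0 fell. At an unadjusted p under 0.05 none of the 13 was lower either, as with DESeq2 and with limma on TPM values. The median log2 fold change was -0.59 over nuclear genes and 0.77 over mitochondrial genes, against 0.01 over all tested genes. With upper-quartile scaling the median of all genes was -0.13 and the share of calls that were higher 44.6% in place of 62.5%. Under that scaling 74 nuclear genes fell and 6 mitochondrial genes rose, with medians of -0.74 and 0.63. Of all tested genes 21.8% fell and 17.6% rose there. The difference between both sets was not tested as such, since the genes of a set are not replicates.

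The level of each gene set in each library shows the same split. Nuclear members took up 1.58, 1.84 and 1.46% of counted reads in the 3 controls and 1.16, 1.13 and 1.21% in the starved libraries. Mitochondrial members took up 0.785, 0.971 and 1.04% in the controls and 1.59, 1.47 and 1.77% in the starved libraries. The ratio of mitochondrial to nuclear reads was 0.496, 0.527 and 0.712 in the controls and 1.38, 1.298 and 1.46 in the starved libraries, so that the groups did not overlap in any of these 3 measures. The ratio was 1.16, 0.954 and 1.29 after re-addition and at 0.890, 1.56 and 1.29 with Rap, above every control. Replicates were not free of shared shifts: control replicate 2 was the highest of its group for 75 of the 83 nuclear genes, and Rap replicate 1 the lowest of its group for 12 of the 13 mitochondrial genes.

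**Figure D1:**
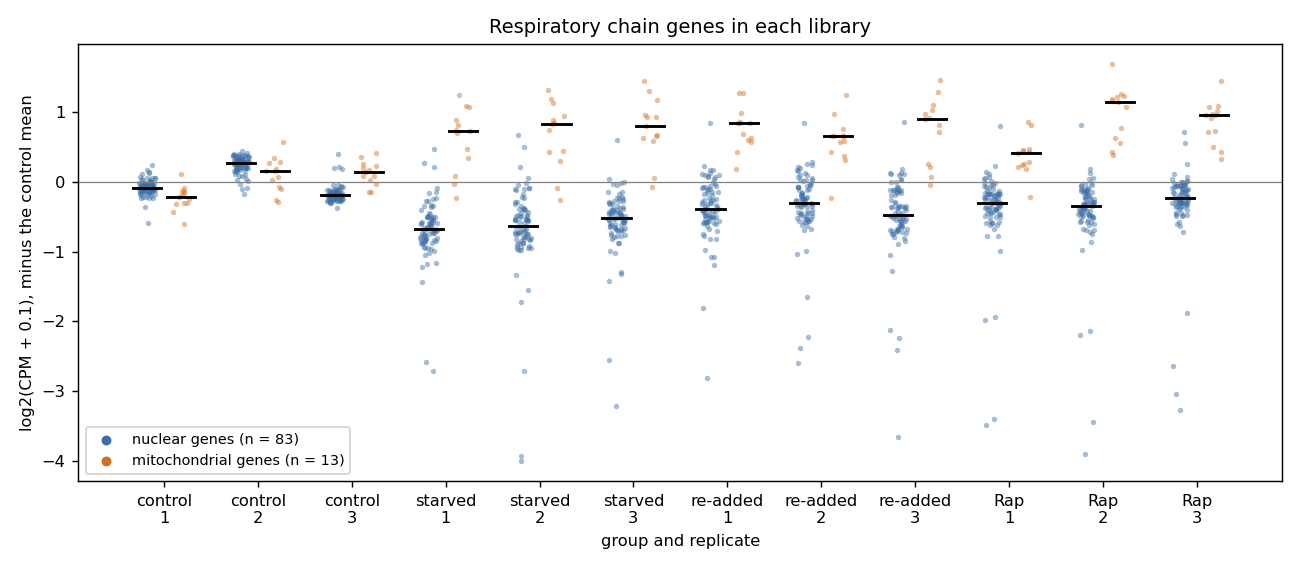
Each point is 1 gene in 1 library, as log2(CPM + 0.1) minus the mean of the 3 controls; blue points are the 83 nuclear genes, orange points the 13 mitochondrial genes, and black bars their medians. The nuclear medians are -0.679, -0.630 and -0.518 in the starved libraries, and the mitochondrial medians are 0.735, 0.824 and 0.806.

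Of the 36 nuclear genes of complex I, the NADH dehydrogenase, 33 fell in starved cells, where 14.6% of all tested genes did. All 29 tested accessory subunits, which surround the catalytic core, fell, with log2 fold changes from -1.06 to -0.35. Of the 7 nuclear core subunits, which carry the flavin, the iron-sulfur clusters and the quinone site, 4 fell. Ndufb8, an accessory subunit of the membrane arm, read 479, 529 and 388 CPM in the controls and 204, 236 and 228 CPM in starved cells. No starved value reached a control value, and the log2 fold change was -1.06 ± 0.12 (SE; adjusted p = 4.1e-05). Ndufa11, another membrane arm subunit, changed by -0.91 (adjusted p = 1.4e-04). The core subunits that did not pass were Ndufs1 (0.02), Ndufs3 (-0.20) and Ndufs7 (-0.13), whose control and starved libraries overlapped.

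Complex II, succinate dehydrogenase, is the only complex made from nuclear genes alone, and its subunits went different ways. Sdha, the flavoprotein that oxidises succinate (chromosome 13, 74322254 to 74350280, minus strand; GRCm38), read 265, 263 and 323 CPM in the controls and 393, 452 and 430.1 CPM in the starved libraries. All 3 starved values lay above all 3 controls (log2 fold change 0.58 ± 0.09, adjusted p = 3.3e-04), and Sdha was the 1 nuclear gene that rose. Its partner Sdhb, the iron-sulfur subunit (chromosome 4, 140961203 to 140979193, plus strand), read 142, 159 and 127 CPM in the controls and 77.5, 87.0 and 82.3 CPM in the starved libraries, a fall without overlap (-0.79 ± 0.09, adjusted p = 6.2e-05). Of the membrane anchors, Sdhc fell (-0.43, adjusted p = 0.0153) although its groups overlapped, and Sdhd did not pass (-0.25, adjusted p = 0.0546). Per exon length, Sdha went from 195 ± 35.3 to 316 ± 1.02 TPM and Sdhb from 169 ± 8.38 to 106 ± 1.91 TPM (mean ± SD, n = 3; TPM is the length-scaled level within a library).

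In complex III, the cytochrome bc1 complex, 8 of 9 nuclear genes fell, beside 14.6% of all tested genes. Cyc1, its cytochrome c1 (chromosome 15, 76343523 to 76345934, plus strand), read 209, 236 and 194 CPM in the controls and 124, 146 and 138 CPM in starved cells, with no overlap (-0.65 ± 0.09, adjusted p = 2.3e-04). The small accessory subunits Uqcrb (-0.87, adjusted p = 2.4e-04) and Uqcrq (-0.90, adjusted p = 2.5e-04) fell further. The exception was Uqcrfs1, the Rieske iron-sulfur protein, at -0.20 (adjusted p = 0.183). The calls of the core proteins Uqcrc1 (-0.25) and Uqcrc2 (-0.30) were lost without control replicate 1. They were also lost in the matched libraries, which are fewer, with a value of -0.33 for both. That of Uqcrc1 was lost too if control replicate 2, either of re-added replicates 2 and 3, or any of the Rap libraries was left out. Cycs, the mobile carrier cytochrome c (chromosome 6, 50562563 to 50566538, minus strand), read 235, 271 and 209 CPM in the controls and 123, 134 and 129 CPM in the starved libraries, with no overlap (-0.89 ± 0.09, adjusted p = 2.8e-05).

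Complex IV, cytochrome c oxidase, fell in 13 of 17 tested nuclear genes, beside 14.6% of all tested genes. Several of its subunits come in isoforms, and the lowest fold changes of the complex were those of its muscle-type isoforms. Cox7a1, the heart and muscle isoform, went from 23.2, 29.1 and 20.6 to 3.57, 3.58 and 4.02 CPM (-2.70 ± 0.17, adjusted p = 7.6e-07), and Cox6a2 from 11.7, 17.6 and 12.1 to 2.17, 0.749 and 1.37 CPM (-3.25 ± 0.34, adjusted p = 3.3e-05). The 6 striated muscle markers summed to 24.5 to 32.3 CPM in the controls and to 24.0, 5.17 and 10.7 CPM in the starved libraries. In the matched libraries, where starved replicate 1 alone stands for its group, the log2 fold changes of Cox7a1 and Cox6a2 were -2.75 and -2.64. Cox4i2, the lung-enriched isoform of subunit 4, was not called, at 1.88, 2.27 and 2.60 CPM in the controls and 1.59, 0.0535 and 0.769 CPM in the starved libraries (-1.44, adjusted p = 0.144; -0.48 in the matched libraries). The part of other cell types in the values of Cox4i2 was not tested.

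Per length, the ubiquitous isoforms were the abundant ones. In the controls Cox4i1 stood at 1212 ± 146 TPM against 7.61 ± 1.46 for Cox4i2, Cox6a1 at 2622 ± 445 against 53.4 ± 8.51 for Cox6a2, and Cox6b1 at 749 ± 117 against 2.75 ± 0.909 for Cox6b2. Cox7a2 stood at 333 ± 38.6 TPM and Cox7a1 at 119.9 ± 12.2, Cox7b at 215 ± 16.7 and Cox7b2 at 3.19 ± 1.08, and Cox8a at 1875 ± 187 (mean ± SD, n = 3). In starved cells the ubiquitous forms fell as well: Cox4i1 changed by -0.56, Cox6a1 by -0.71, Cox6b1 by -0.67, Cox7a2 by -0.74, Cox7b by -0.71 and Cox8a by -0.48 on the log2 scale, each past the threshold. Cox7c, which has no isoform among these genes, changed by -0.89 (adjusted p = 4.3e-04). Cox6b2 (-0.72) and Cox7b2 (-0.29), with 2 to 35 and 5 to 16 reads in a library of any group, did not pass.

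ATP synthase fell in 12 of 16 genes, beside 14.6% of all tested genes, and unevenly. Of the 11 genes of its membrane part and stalk, 10 fell, and of the 5 genes of the catalytic F1 head, 2 fell. The F1 subunits alpha and beta, which form the catalytic ring, did not pass: Atp5a1 stood at 827, 839 and 778 CPM in the controls and 732, 845 and 834 CPM in the starved libraries (-0.02), and Atp5b changed by -0.14 (adjusted p = 0.141). Atp5e, the small epsilon subunit of F1, showed the opposite extreme, at 196, 281 and 175 CPM in the controls and 78.2, 72.6 and 86.8 CPM in the starved libraries (-1.46 ± 0.16, adjusted p = 3.9e-05). The groups were far apart for Atp5e and overlapped for Atp5a1. Atp5k, a membrane subunit at the dimer interface, changed by -1.09 (adjusted p = 2.9e-04). The genes Atp5g1, Atp5g2 and Atp5g3 encode the same mature subunit c of the rotor. All 3 fell, changing by -0.75 (adjusted p = 2.3e-04), -0.55 and -0.57, and stood at 136 ± 14.1, 311 ± 7.74 and 440.0 ± 53.5 TPM in the controls. Atp5s, a coupling factor gene at about 6 to 11 CPM, was the nuclear member with the most positive value besides Sdha and did not pass (0.18).

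**Figure D2:**
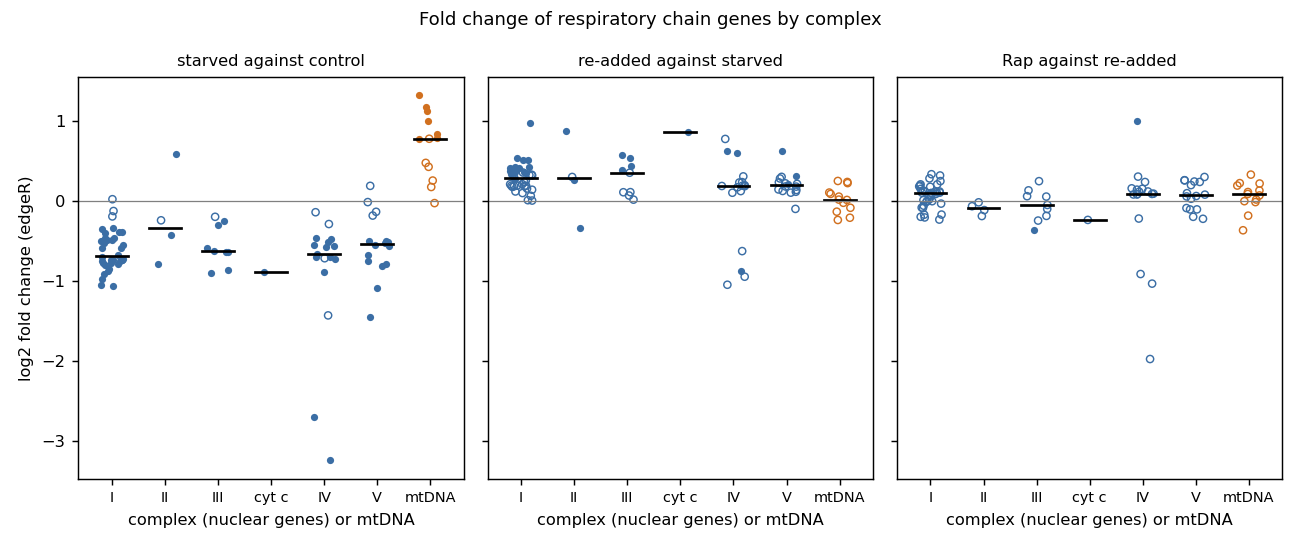
The log2 fold change of each tested gene in the 3 main comparisons, by complex for the nuclear genes (blue) and together for the mitochondrial genes (orange, mtDNA); filled points passed an adjusted p of 0.05, open points did not, and black bars are medians. In starved cells the medians run from -0.89 (cytochrome c, 1 gene) to -0.34 (complex II) for nuclear genes, against 0.77 for mitochondrial genes.

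Many nuclear genes of the chain carry sites for a shared set of factors in their promoters, among them NRF1, the ETS factor GABPA, estrogen-related receptors, YY1 and CREB. Promoter windows from 250 bases before to 50 bases after the start were at hand for 70 of the 85 nuclear genes (75 windows, RefSeq, GRCm38.p6). The NRF1 core GCATGCGC, searched on both strands, was in 14.7% of those windows and in 2.71% of all 32851 windows. The ETS motif CCGGAAG was in 21.3% against 8.86%, the estrogen-related receptor motif CAAGGTCA in 5.33% against 1.56%, the YY1 motif AAGATGGC in 13.3% against 2.75%, the CRE TGACGTCA in 6.67% against 1.79% and the E-box CACGTG in 9.33% against 7.15%. These motifs do not contain each other, but 1 gene can hold several. Atp5k, Atp5l, Cox6a1, Sdhb and Uqcr11 held both the NRF1 core and the ETS motif, so the groups of genes compared next overlap. The 11 genes with the NRF1 core had a median log2 fold change of -0.71 in starved cells and the 58 tested genes without it -0.58. For the ETS motif the medians were -0.73 (16 genes) and -0.55 (53 genes), for the estrogen-related receptor motif -0.70 (4) and -0.59 (65), and for the E-box -0.66 (6) and -0.59 (63). They were -0.62 (10) and -0.59 (59) for the YY1 motif, and -0.59 with (5) and without (64) the CRE. None of these differences was tested. A match describes letters only and does not show a bound site.

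The promoters of the 4 genes with the NRF1 core that had the most negative fold changes are given to show where the letters lie. They were picked for their fold changes, so that all 4 fell follows from the choice. Other genes with the core had smaller changes, such as Atp5g2 (-0.55) and Uqcrc1 (-0.25). Capitals mark the NRF1 core, ETS and CRE letters on either strand, and the sequence runs along the strand of the gene.
Atp5k, chr5:108434350-108434649, minus strand: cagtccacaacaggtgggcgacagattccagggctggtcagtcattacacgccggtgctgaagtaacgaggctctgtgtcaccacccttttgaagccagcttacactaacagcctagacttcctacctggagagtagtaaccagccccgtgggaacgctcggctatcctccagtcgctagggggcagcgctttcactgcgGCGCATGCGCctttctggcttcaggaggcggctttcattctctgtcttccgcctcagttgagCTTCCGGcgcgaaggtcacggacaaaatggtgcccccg
Ndufa11, chr17:56717512-56717811, plus strand: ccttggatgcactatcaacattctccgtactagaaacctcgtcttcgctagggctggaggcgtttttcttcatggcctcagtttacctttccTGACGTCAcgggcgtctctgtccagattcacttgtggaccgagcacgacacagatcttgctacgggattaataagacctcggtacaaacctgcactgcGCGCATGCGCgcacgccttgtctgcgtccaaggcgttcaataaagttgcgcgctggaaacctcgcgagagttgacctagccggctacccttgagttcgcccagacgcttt
Cycs, chr6:50566520-50566819, minus strand: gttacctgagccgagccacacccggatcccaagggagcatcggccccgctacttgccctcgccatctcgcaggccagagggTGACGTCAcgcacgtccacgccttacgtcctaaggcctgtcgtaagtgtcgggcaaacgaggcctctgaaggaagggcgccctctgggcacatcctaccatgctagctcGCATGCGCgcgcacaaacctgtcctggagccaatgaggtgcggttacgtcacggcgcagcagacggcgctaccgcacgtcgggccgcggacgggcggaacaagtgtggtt
Atp5l, chr9:44920693-44920992, minus strand: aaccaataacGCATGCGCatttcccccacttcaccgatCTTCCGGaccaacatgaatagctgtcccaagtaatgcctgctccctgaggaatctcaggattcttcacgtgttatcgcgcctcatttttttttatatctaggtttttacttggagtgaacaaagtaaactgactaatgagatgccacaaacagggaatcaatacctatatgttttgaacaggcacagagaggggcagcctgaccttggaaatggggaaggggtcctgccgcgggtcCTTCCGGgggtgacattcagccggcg
The NRF1 core begins 60 bases before the start in Cycs. In Atp5k and Ndufa11 the palindrome GCGCATGCGC gives overlapping matches on both strands, beginning 50 bases before the start in Atp5k and 60 in Ndufa11. In Atp5l it lies further out, 240 bases before the start, with an ETS match 212 bases before the start. Log2 fold changes of these genes in starved cells were -1.09, -0.91, -0.89 and -0.82. Of the exonic windows of the Atp5l transcript, 44.6% have an exact copy in another annotated transcript, so its count is uncertain; for Cycs the share is 21.8%.

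Respiratory chain genes are short, and short genes as a whole were lower in starved cells. The median exon length was 1495 bases for the nuclear members and 3730 bases for all tested genes. Among all tested genes under 1000 bases the median log2 fold change was -0.41, and among those of 4000 bases and over 0.18. Within every length class the members lay lower: -0.74 under 1000 bases (24 genes), -0.65 between 1000 and 2000 (29 genes), -0.54 between 2000 and 4000 (20 genes) and -0.52 at 4000 and over (10 genes). Of the members, 22, 22, 17 and 8 fell in these classes, where 23.4%, 24.9%, 16.5% and 8.66% of all tested genes did. Across genes, Spearman's rho between length and fold change was 0.24 for the members (n = 83) and 0.28 for all 16844 genes; genes share libraries and are not independent, so no p is given. The part of length in the fall was not tested.

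**Figure D3:**
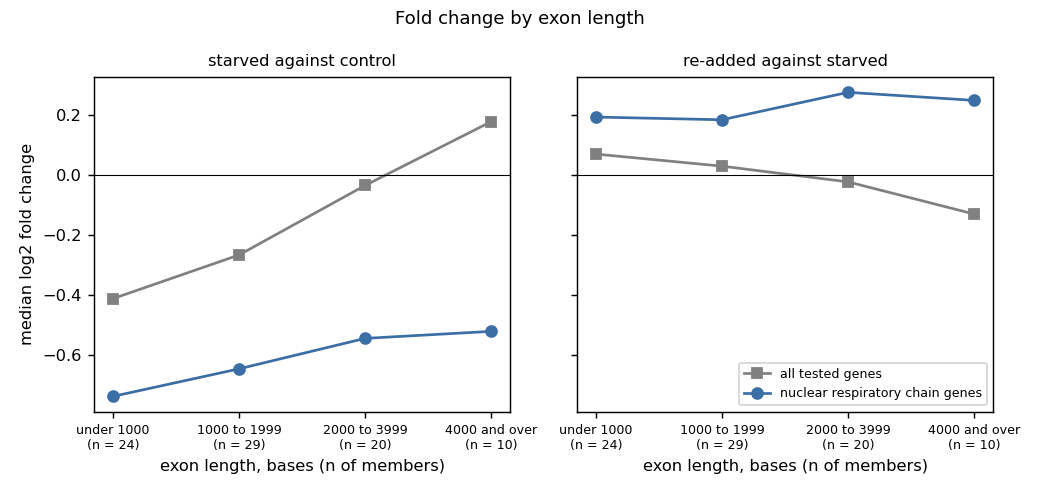
Median log2 fold change of nuclear respiratory chain genes (blue circles) and of all tested genes (grey squares) in 4 classes of exon length, for starved against control (left) and re-added against starved (right). In starved cells all genes run from -0.41 to 0.18 with length while the members stay between -0.74 and -0.52.

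Of the 13 mitochondrial genes 7 rose in starved cells and 6 did not pass, with log2 fold changes over all 13 from -0.03 to 1.31. mt-Nd5, a proton-pumping subunit of complex I (mitochondrial genome, 11742 to 13565), read 681, 604 and 934 CPM in the controls and 1717, 1810.2 and 1992 CPM in the starved libraries. The groups did not overlap, and the log2 fold change was 1.31 ± 0.21 (adjusted p = 5.1e-04). mt-Cytb, the cytochrome b of complex III (14145 to 15288), read 1341, 1832 and 1826 CPM in the controls and 3039, 3175 and 3718 CPM in the starved libraries (0.99 ± 0.19, adjusted p = 0.00141). The complex I subunits mt-Nd2 (1.16, adjusted p = 2.7e-04), mt-Nd4 (0.83, 0.00418) and mt-Nd1 (0.78, 0.00495) rose too, as did mt-Nd4l (1.12, 0.0098), which rests on 13 to 47 reads in a library. mt-Nd6, the only one of these on the opposite strand (13552 to 14070), rose by 0.77 (adjusted p = 0.022). The strand setting of the counting is not given in the sources used here, so its reads and antisense reads cannot be told apart. mt-Co1, the catalytic subunit of complex IV, was higher in every starved library than in every control but missed the threshold (0.47, adjusted p = 0.0612).

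How well these values hold differs between genes. In the matched libraries the log2 fold changes were 1.23 for mt-Nd5, 1.08 for mt-Nd2 and 0.89 for mt-Cytb. They were 0.80 for mt-Nd4, 0.70 for mt-Nd1, 0.70 for mt-Nd6 and 1.195 for mt-Nd4l, which lost their calls there. That fit has 1 starved library, and a smaller share of all tested genes was called in it too. The call of mt-Nd6 was also lost without control replicate 1, control replicate 3 or starved replicate 3.

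Of the 13 mitochondrial genes, 6 had far fewer reads than their neighbours on the same transcription units. Per length, mt-Co2, mt-Co3, mt-Atp6, mt-Atp8, mt-Nd3 and mt-Nd4l lay between 2.47 and 37.9 TPM over all 12 libraries, and the other 7 between 777 and 15331 TPM. Nuclear copies of mitochondrial DNA are annotated in the mouse genome, and a read that fits both places cannot be assigned. For 5 of the 6 low genes, 97% to 99.8% of all windows of 150 bases have an exact copy in another annotated transcript, as taken from GENCODE transcripts of GRCm38. The annotated copy with most such windows read between 0 and 55 counts in a library for each of these 5. For the 7 other genes the share was 0% in 5, 23.6% in mt-Co1 and 59.2% in mt-Nd4. mt-Atp8 has no such copy but overlaps mt-Atp6 on the genome (7766 to 7969 against 7927 to 8607). What the counting did with reads that fit several places or genes is not given in the sources used here, so the levels of these 6 genes are uncertain. The start of mt-Co2 (7013 to 7696, plus strand) shows the identity with the annotated copy Gm28661; capitals mark shared letters, which are all 60.
mt-Co2: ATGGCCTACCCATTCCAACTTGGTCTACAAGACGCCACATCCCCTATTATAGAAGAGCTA
Gm28661: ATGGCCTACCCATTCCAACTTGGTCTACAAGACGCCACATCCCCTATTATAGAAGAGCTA
Among the 7 genes with over 1000 reads on average, 6 rose in starved cells, with a median log2 fold change of 0.83. Among the 6 others 1 rose, with a median of 0.34.

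**Figure D4:**
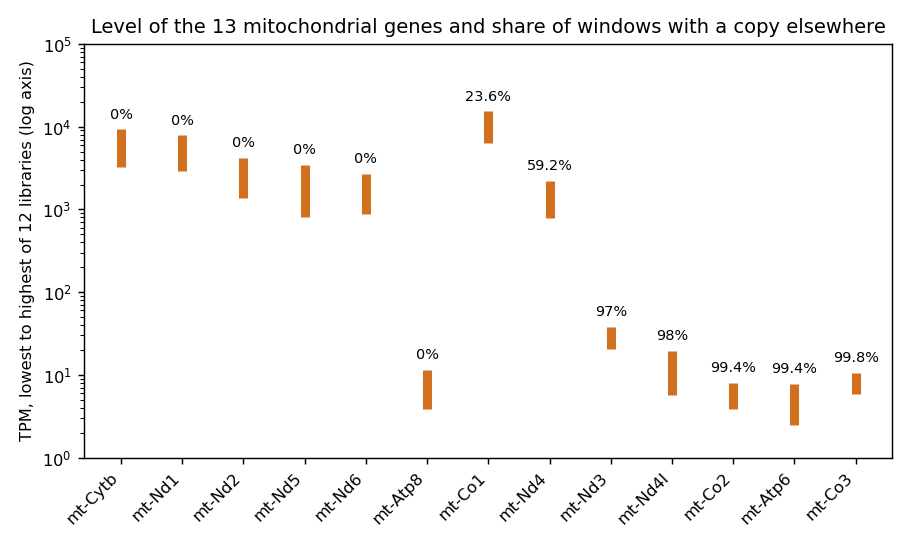
Level of each mitochondrial gene in TPM (log axis), the bar running from the lowest to the highest of 12 libraries, with the share of its 150-base windows that have an exact copy in another annotated transcript printed above. The 5 genes with shares of 97% to 99.8%, and mt-Atp8, lie below 37.9 TPM, and the other 7 above 777 TPM.

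Giving amino acids back for 3 h raised part of the nuclear genes and left the mitochondrial ones without a call. Of 83 nuclear genes, 26 rose and 2 fell against starved cells, where 18.4% of all tested genes rose and 18.8% fell. Their median log2 fold change was 0.22, against -0.06 over all genes. Of the 13 mitochondrial genes 0 rose and 0 fell with edgeR, with 0 also at an unadjusted p under 0.05 and with DESeq2 and limma. Their median was 0.01 and their values ran from -0.24 to 0.24, with a median SE of 0.22, so small changes were not detectable at this precision. The starved libraries serve here and in the comparison with control, so both share them. With upper-quartile scaling 57.7% of all calls were higher in place of 49.4%. The 26 rested on which libraries entered: 12 rose in the matched libraries, 17 without re-added replicate 2 and 42 without control replicate 2.

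Sdhb and Cycs were among the genes that rose with the smallest adjusted p. Sdhb read 152, 159 and 141 CPM (log2 fold change 0.87 ± 0.09, adjusted p = 2.3e-05), and Cycs 236, 249 and 217 CPM (0.86 ± 0.09, adjusted p = 2.5e-05). Both overlapped the controls and lay clear of the starved group. Cyc1 read 199.6, 196 and 194 CPM, also without overlap with the starved group (0.53, adjusted p = 7.8e-04). Against control, Sdhb (0.08 ± 0.09), Cycs (-0.03 ± 0.09) and Cyc1 (-0.12 ± 0.09) did not pass. A missed threshold does not show that the levels were equal.

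By complex, 14 of 36 nuclear genes rose in complex I, 4 of 9 in complex III, 2 of 17 in complex IV and 3 of 16 in ATP synthase. Of all tested genes 18.4% rose. In complex I the accessory subunits Ndufa10 (0.50, adjusted p = 0.00102) and Ndufa12 (0.41, adjusted p = 0.00128) rose, and in all 4 of 7 core and 10 of 29 accessory genes did. Ndufb8 read 289, 286 and 256 CPM, above every starved library and below every control, and did not pass (0.31 ± 0.12, adjusted p = 0.0505). In complex III, Uqcrb (0.57, adjusted p = 0.00339) and Uqcrc1 (0.43, adjusted p = 0.00267) rose. In complex IV, Cox5a, a matrix-side subunit, rose by 0.62 (adjusted p = 0.00223) and Cox7a1 by 0.59 (adjusted p = 0.0157), to 6.81, 5.05 and 5.03 CPM, still below every control. In ATP synthase, the subunit c gene Atp5g1 rose by 0.61 (adjusted p = 8.1e-04), Atp5f1 of the stalk by 0.31 (adjusted p = 0.0248) and the catalytic Atp5b by 0.21 (adjusted p = 0.0387). Atp5g2 (0.18) and Atp5g3 (0.23), which make the same mature subunit as Atp5g1, did not pass. The calls of Uqcrc1, Cox5a, Cox7a1, Atp5f1 and Atp5b were lost in the matched libraries, which are fewer, with values there of 0.39, 0.52, 0.55, 0.25 and 0.14. Cox7a1 also lost its call without re-added replicate 1, Atp5f1 without re-added replicate 2, and Atp5b without re-added replicate 2 or 3 or any Rap replicate.

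In complex II the subunits again differed. Sdha rose further, to 507, 505 and 513 CPM, above every starved and every control library (0.26 ± 0.09, adjusted p = 0.0341; not called in the matched libraries, at 0.23, or without starved replicate 1, re-added replicate 2 or 3, or Rap replicate 1 or 2). Sdhd, the anchor that helps to hold heme and quinone, read 123, 148 and 132 CPM in the starved and 108, 109.8 and 101 CPM in the re-added libraries, a fall without overlap (-0.34 ± 0.09, adjusted p = 0.0142; not called without re-added replicate 3 or in the matched libraries, at -0.43 there). Against control, re-added Sdha stood at 0.84 ± 0.09 (adjusted p = 3.4e-05) and Sdhd at -0.58 ± 0.09 (adjusted p = 6.1e-04).

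Cox7a2l went against its complex. This relative of the Cox7a subunits, also called SCAF1, joins complexes III and IV into supercomplexes (chromosome 17, 83501919 to 83514333, minus strand). It read 158, 192 and 134 CPM in the controls, 132, 151 and 155 CPM without amino acids, 81.5, 80.2 and 76.9 CPM after re-addition and 159, 157 and 160.1 CPM after re-addition with Rap. The re-added libraries lay below all 9 others, and the Rap libraries within the range of the controls. It was lower after re-addition than in starved cells (-0.88 ± 0.11, adjusted p = 8.6e-05), and with Rap it was higher than without (1.00 ± 0.11, adjusted p = 2.6e-04). In the matched libraries these values were -0.89 and 1.00. Starved against control (-0.15) and Rap against starved (0.12) did not pass. Per length it went from 198 ± 4.99 TPM after re-addition to 367 ± 8.45 TPM with Rap (mean ± SD, n = 3).

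**Figure D5:**
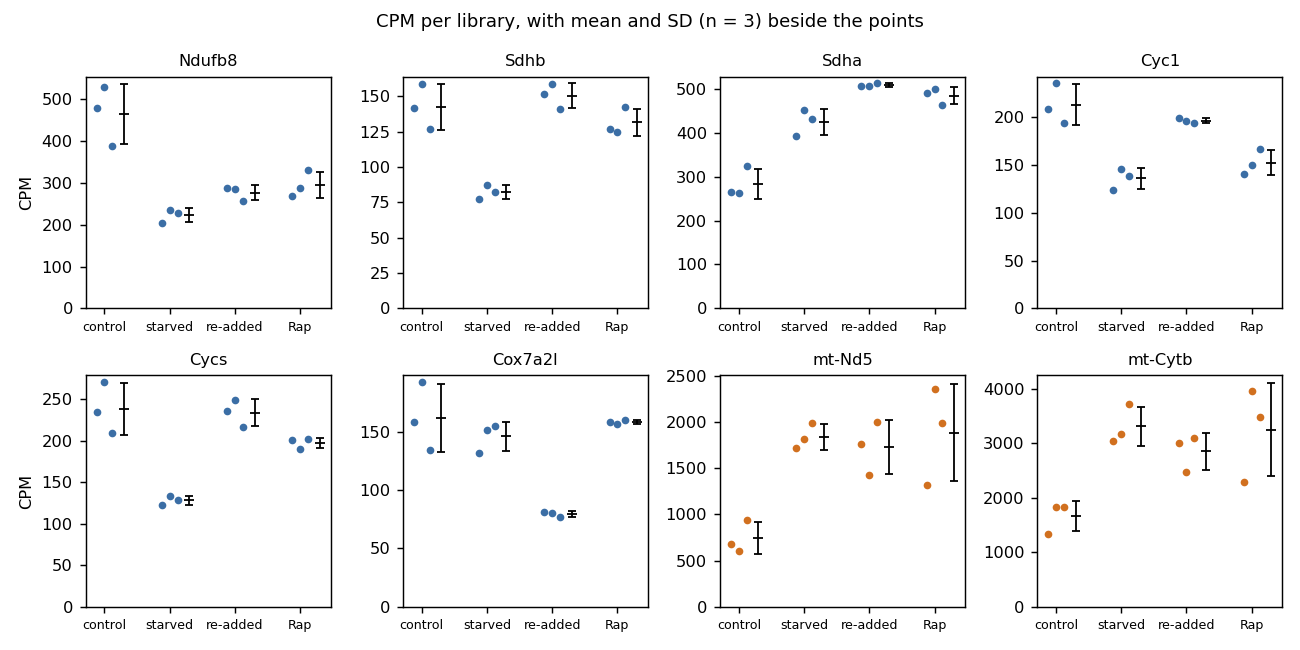
CPM of 8 respiratory chain genes in each of the 12 libraries (points), with the mean and SD of each group (n = 3) beside them; nuclear genes are blue and mitochondrial genes orange. Ndufb8, Sdhb, Cyc1 and Cycs dip in the starved group, Sdha climbs, and Cox7a2l is lowest in the re-added group, at 81.5, 80.2 and 76.9 CPM.

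Rap given with the amino acids changed few of these genes against amino acids alone. Of 83 nuclear genes 1 rose (Cox7a2l) and 1 fell (Cyc1), where 4.55% of all tested genes rose and 3.43% fell. Of 13 mitochondrial genes 0 rose and 0 fell with edgeR, DESeq2 and limma, with 0 at an unadjusted p under 0.05. The median log2 fold change was 0.07 over nuclear and 0.08 over mitochondrial genes, against 0.0004 over all genes. On TPM values with limma both medians were negative (-0.03 and -0.05), with -0.08 over all genes, and 29.0% of all calls were higher in place of 57.0%. The count of genes that fell depended on the method. It was 3 with DESeq2 and 16 with limma on TPM values, where 6.9% and 8.22% of all tested genes fell. With edgeR on these 6 libraries alone 16 fell and 8 rose, where 14% of all tested genes fell and 12% rose. With edgeR on all 12 libraries 5 were higher and 6 lower at an unadjusted p under 0.05. The share of all tested genes at that threshold was not counted.

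Cyc1 read 141, 150.1 and 166 CPM with Rap and 199.6, 196 and 194 CPM without, with no overlap (-0.37 ± 0.09, adjusted p = 0.0295). The call was lost without re-added replicate 2 or 3, without Rap replicate 1 or 2, and in the matched libraries, where the value was -0.37, with adjusted p up to 0.134. Other complex III genes of the same sign were Uqcrc1 (-0.25) and Uqcrc2 (-0.19), and in complex II Sdhb (-0.19) and Sdhd (-0.12), none past the threshold. Cycs read 200.4, 191 and 202 CPM with Rap, below every library given amino acids back alone, and did not pass (-0.24 ± 0.09, adjusted p = 0.14). In complex I, Ndufa7 (0.31), Ndufb11 (0.33) and Ndufs1 (-0.20) had the smallest p, and in ATP synthase Atp5j (0.25), Atp5g1 (-0.23) and Atp5g2 (0.19), with adjusted p from 0.134 to 0.235. In complex IV these were, besides Cox7a2l, Cox6a2 (-0.92, adjusted p = 0.133, but called at -1.10 in the matched libraries) and Cox4i1 (0.30, adjusted p = 0.193). Among the 3 subunit c genes Atp5g1 and Atp5g3 (-0.20) had negative and Atp5g2 positive values, none of them past the threshold.

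Against starved cells, the libraries with Rap had 38 nuclear genes higher and 3 lower, where 20.2% of all tested genes were higher and 23.9% lower. No mitochondrial gene was called in either direction with edgeR, DESeq2 or limma, and none at an unadjusted p under 0.05. Sdhb (0.68 ± 0.09) and Cycs (0.62 ± 0.09) rose here too. The 3 lower genes were Sdhd (-0.46, adjusted p = 0.00286), Cox4i2 (-2.93) and Cox6b2 (-2.09). Cox4i2 read 0.108, 0.0552 and 0.141 CPM with Rap, where the other cell types' markers were lowest, and its sign turned in the matched libraries (0.92). Cox6b2 was not called in the matched libraries, and neither gene was called without starved replicate 1 or any Rap replicate, nor Cox4i2 without starved replicate 3. Fewer nuclear genes rose in the matched libraries, with 1 starved library, where a smaller share of all tested genes rose as well. Without Rap replicate 3 17 rose, beside 14.7% of all tested genes. Without starved replicate 1 or 2 or Rap replicate 1 or 2 it was between 22 and 25, beside 15.2% to 18%. Without control replicate 2 it was 59, beside 22.9%.

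After 3 h with amino acids, most of these genes still differed from the controls. Of 83 nuclear genes 50 were lower than in the controls and 1, Sdha, was higher, where 24.5% of all tested genes were lower and 24.8% higher. Of 13 mitochondrial genes 9 were higher and 0 lower, and 0 were lower at an unadjusted p under 0.05, with DESeq2 or with limma. The median was -0.40 over nuclear and 0.78 over mitochondrial genes, against 0.02 over all genes (0.12 on TPM values, with 60.7% of calls higher in place of 50.2%). The lower genes were 22 of 36 in complex I, 13 of 17 in complex IV and 10 of 16 in ATP synthase. The lowest fold changes were those of the isoforms Cox6a2 (-2.48), Cox4i2 (-2.39), Cox7a1 (-2.11) and Cox6b2 (-1.77), then of Atp5e (-1.16). mt-Nd5 read 1759, 1422 and 2003 CPM after re-addition and 1316, 2351 and 1985 CPM with Rap, and mt-Cytb 2998, 2464 and 3095 and 2297, 3964 and 3479.6 CPM, all above the controls. Rap replicate 1 was the lowest of its group for both. The count of nuclear genes lower than in the controls was 30 without re-added replicate 3, where 12.6% of all tested genes were lower. No re-added library had a marker sum of other cell types as high as the controls, and their part in this comparison was not tested.

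Of 14 listed transcription factors and coactivators of these genes, 6 rose and 2 fell in starved cells, where 24.3% of all tested genes rose and 14.6% fell. On re-addition 2 rose and 6 fell, beside 18.4% and 18.8% of all tested genes. Ppargc1a, the coactivator PGC-1alpha that drives mitochondrial biogenesis, read 8.79, 6.11 and 8.48 CPM in the controls, 30.2, 39.3 and 32.3 CPM in the starved, 11.3, 13.1 and 11.5 CPM in the re-added and 13.4, 14.2 and 13.4 CPM with Rap. The starved libraries were the high ones, without overlap with any other group (log2 fold change 2.12 ± 0.15, adjusted p = 1.4e-06, then -1.50 ± 0.14, adjusted p = 9.1e-06). Its relative Ppargc1b rose by 1.61 and the estrogen-related receptor gene Esrrg by 1.22 in starved cells. Gabpa, the ETS factor, rose in starved cells (0.58, adjusted p = 0.00114), fell on re-addition (-0.64, adjusted p = 5.7e-04) and was higher with Rap (0.39, adjusted p = 0.0436). Nrf1 did not pass in any of these (0.20, -0.07 and -0.02), and Esrra passed on re-addition alone (-0.52, adjusted p = 0.00537). Pprc1, a growth-responsive relative of Ppargc1a, rose on re-addition (0.77, adjusted p = 9.4e-05) and was lower with Rap (-0.65, adjusted p = 0.00202).

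Of 15 genes for transcription and replication of mitochondrial DNA, 5 rose and 0 fell in starved cells, beside 24.3% and 14.6% of all tested genes, with a median of 0.26. Polrmt, the mitochondrial RNA polymerase, read 28.4, 31.3 and 36.4 CPM in the controls and 42.7, 52.7 and 47.1 CPM in the starved libraries (0.57 ± 0.11, adjusted p = 0.00155). Twnk, the replicative helicase, read 15.9, 15.8 and 17.8 CPM in the controls, 34.2, 39.0 and 40.1 CPM in the starved, 14.5, 13.1 and 14.3 CPM in the re-added and 23.1, 24.8 and 23.9 CPM in the Rap libraries. It rose without amino acids (1.196, adjusted p = 2.4e-06), fell on re-addition (-1.44, adjusted p = 4.7e-07) and was higher with Rap (0.78, adjusted p = 3.4e-04). The transcription factor gene Tfb2m rose by 0.72 in starved cells and fell by 0.94 on the log2 scale on re-addition. Tfam, which packages and activates mitochondrial DNA, did not pass in the 3 main comparisons (0.11, -0.26 and 0.01). On re-addition 2 of the 15 rose and 4 fell, near the 18.4% and 18.8% of all tested genes.

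Of 16 genes that process and stabilise mitochondrial RNA, 4 rose and 3 fell in starved cells, near the 24.3% and 14.6% of all tested genes. On re-addition 8 rose and 1 fell, beside 18.4% and 18.8%. Lrpprc, which with Slirp protects mitochondrial messenger RNAs, rose (0.67, adjusted p = 3.7e-04) while Slirp fell (-0.72, adjusted p = 0.00119). Rexo2, an exonuclease that clears short mitochondrial RNA fragments, read 86.3, 90.4 and 80.0 CPM in the controls, 52.7, 47.8 and 47.1 CPM in the starved and 88.2, 89.8 and 83.2 CPM in the re-added libraries. The starved libraries were the low ones, without overlap (-0.80, adjusted p = 8.1e-06, then 0.82, adjusted p = 4.3e-06). With Rap 3 of the 16 fell, beside 3.43% of all tested genes, among them Tbrg4 (-0.58, adjusted p = 4.8e-04).

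Assembly factors, which build the complexes but are not part of them, fell in starved cells in 7 of 17 genes for complex I, 2 of 4 for complex II, 3 of 6 for complex III, 10 of 22 for complex IV and 2 of 5 for ATP synthase, and rose in 2, 0, 0, 3 and 1, where 14.6% of all tested genes fell and 24.3% rose. Uqcc2, needed to make cytochrome b, read 187, 232 and 167 CPM in the controls, 58.9, 59.9 and 67.1 CPM in the starved and 99.5, 109 and 88.8 CPM in the re-added libraries (-1.65 ± 0.12, adjusted p = 2.4e-06). Its starved values lay far below, and its re-added values remained under every control. For complex IV, Higd1a (-2.08) and Coa3 (-0.95) fell and Coa5 rose (0.40). On re-addition, where 18.4% of all tested genes rose, all 4 complex II factors rose, with a median of 0.68, as did 8 of 17 for complex I, led by Foxred1 (1.00, adjusted p = 3.5e-06) and Ndufaf3 (0.96, adjusted p = 3.7e-05), and 6 of 22 for complex IV, led by Cox18 (1.198, adjusted p = 2.6e-05). With Rap, Cox10, which makes heme for complex IV, was lower (-0.53, adjusted p = 0.00477) and the complex I factor Dmac2 higher (0.68, adjusted p = 0.00257).

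Of 9 listed genes linked to oxygen supply and the chain, 5 fell and 1 rose in starved cells, beside 14.6% and 24.3% of all tested genes. Pdk1, which keeps pyruvate out of the citric acid cycle, read 143, 112 and 138 CPM in the controls and 32.7, 38.3 and 32.6 CPM in the starved libraries (-1.93, adjusted p = 1.7e-07), and the mitophagy receptor gene Bnip3 changed by -2.37 (adjusted p = 4.6e-06). Its relative Bnip3l was low in the re-added libraries, at 83.0, 79.3 and 79.4 CPM, and high with Rap, at 149.8, 167 and 163 CPM (0.99, adjusted p = 4.7e-04). Of 6 tested uncoupling and carrier genes, 4 fell in starved cells, beside 14.6% of all tested genes, and 4 rose on re-addition, beside 18.4%. Ucp2, the uncoupling protein of beta cells, read 247, 299.9 and 286 CPM in the controls, 147, 115 and 134 CPM in the starved and 189, 175 and 182 CPM after re-addition (-1.07 and 0.47, adjusted p = 9.6e-06 and 0.00251), and the adenine nucleotide carrier gene Slc25a5 changed by -0.65 and 0.47 (adjusted p = 8.1e-05 and 6.2e-04).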

How the data were processed

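Bulk RNA of 12 MIN6 libraries was sequenced as 150-base read pairs, per the labels' protocols. Raw read counts per gene were deposited for each library; Subread 2.0.1, limma 3.46.0 and the build GRCm38.p6 are named in the submitters' processing notes. Which aligner, strand setting and rule for reads with several matches were applied is not given in the sources used here. A table of TPM values was deposited with the counts and was used for levels between genes.

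Genes were tested with edgeR 4.0.16 (quasi-likelihood test, TMM, filterByExpr with a minimum count of 10) under R 4.3.3, all 12 libraries in 1 model, with Benjamini-Hochberg adjustment over 16844 of 49315 genes and a threshold of 0.05. The script was tested on simulated data. CPM values use TMM-scaled totals, except for the sums of cell type markers, where totals were left unscaled. Each library held 18555958 to 25631056 counted reads. Alternatives were DESeq2 1.42.0, limma 3.58.1 on log2(TPM + 1) for genes of at least 1 TPM in 3 libraries, other scalings and filters, single libraries left out, and matched libraries.

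The members, gene lists and matched libraries were chosen with earlier results of these data known. In each main comparison the text names the 3 members of lowest adjusted p of complexes I, III, IV and V and the 2 of complex II, Cycs, Cyc1, isoforms, called members against their complex and mitochondrial genes. From each other list at most the 3 smallest adjusted p are named, and Ppargc1a, Nrf1, Gabpa, Esrra, Tfam and Polrmt. Further members (Ndufs3, Ndufs7, Sdhc, Uqcrfs1, Atp5a1, Atp5s, and those of the comparisons of Rap with starved and re-added with control) were picked after their values were seen. Values of 1 member that these rules would name are not reported here.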

Additional observations from a re-analysis of the deposited data

How the results depend on the processing

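Most nuclear genes fell and more mitochondrial genes rose than fell in starved cells under every scaling, filter, tool and left-out library tried. Fewer mitochondrial genes were called in the matched libraries, with 1 starved library, as was a smaller share of all tested genes. On re-addition 26 nuclear genes rose and 2 fell. In a fit of the comparison's libraries alone 48 rose, where 23.3% of all tested genes did in place of 18.4%. Fewer rose in the matched libraries, as did a smaller share of all tested genes. Leaving out a library gave 17 to 42 higher and 1 to 2 lower, beside 14.1% to 20.4% and 13.6% to 22.2%. For Rap against re-added, with 1 higher and 1 lower, the comparison's libraries alone gave 8 and 16, beside 12% and 14% of all tested genes. DESeq2 gave 3 lower, beside 6.9%, and limma on TPM values 16 lower, beside 8.22%. Leaving out a library gave 1 to 4 higher and 0 to 4 lower, beside 2.27% to 6.8% and 1.43% to 5.18%. For Rap against starved, with 38 higher and 3 lower, the comparison's libraries alone gave 62 and 1, beside 26.2% and 26.8% of all tested genes. Fewer were higher in the matched libraries, as was a smaller share of all tested genes. A mean of at least 5 CPM and limma gave 1 lower each, beside 26.4% and 23.4% of all tested genes. Leaving out a library gave 17 to 59 higher and 1 to 3 lower for Rap against starved, beside 14.7% to 22.9% and 14.2% to 25.4%. It also gave 0 to 2 mitochondrial genes higher in place of 0. For re-added against control, with 1 nuclear gene higher and 50 lower, limma gave 8 higher, beside 30.9% of all tested genes. Leaving out a library gave 1 to 4 higher and 30 to 56 lower there, beside 17.8% to 24.3% and 12.6% to 27.1%. Cox4i2 turned from -2.93 to 0.92 in the matched libraries for Rap against starved. The cause of these shifts was not tested. Leaving out libraries changes their number and which of them stand for a group at the same time. Of the named members called, 33 of 39 were called under every alternative in starved cells, 9 of 17 on re-addition, 1 of 2 for Rap against re-added, 9 of 22 for Rap against starved and 23 of 32 for re-added against control.

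Whether the replicate numbers pair the libraries is not given. Same-numbered libraries of different groups correlated between -0.33 and 0.81 in their deviations from the group means. Among re-added libraries, starved replicates 1 and 2 correlated best with their own number (0.81 and 0.67), and starved replicate 3 with replicate 1 (0.42). Control replicate 1 had 0.26 with starved replicate 2 and -0.23 with starved replicate 1. These values cannot decide on pairing, since the marker sums of other cell types differ between these starved and re-added libraries too. With a replicate block, 69 nuclear genes fell and 8 mitochondrial genes rose in starved cells, beside 15.4% and 23.3% of all tested genes. With the block 25 nuclear genes rose and 2 fell on re-addition, beside 17.5% and 18%, and 1 rose and 1 fell with Rap, beside 3.69% and 2.65%.

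Depth limits mainly 6 mitochondrial genes with few assigned reads and the isoforms Cox4i2, Cox6b2 and Cox7b2. These isoforms had 1 to 54, 2 to 35 and 5 to 16 reads in a library. The median SE of the log2 fold change was larger for mitochondrial genes (0.22) than for nuclear genes (0.12). The SE holds counting noise as well as the spread between replicates, and the part of each was not tested.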
